A study of Mus musculus with 6 samples.

Results

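The hexokinases, glucose phosphate isomerase, the phosphofructokinases and the PFKFB enzymes carry out and control the first steps of glycolysis, and their transcripts were followed in Ba/F3 cells in which the ETV6::FRK fusion was switched on or left off. The 9 genes were taken by symbol: Hk1, Hk2, Hk3, Gpi1, Pfkl, Pfkm, Pfkp, Pfkfb3 and Pfkfb4. All 9 had a row among the 14238 genes of the table. Ba/F3 is an interleukin-3-dependent mouse pro-B cell line, and ETV6::FRK joins part of a transcription factor to a tyrosine kinase. The cells carried the fusion in a retroviral Tet-On system, in which doxycycline switches the transgene on. The 3 induced libraries (marked DOXp and IL3n) came from cells given 500 ng/ml doxycycline for 48 h. The 3 control libraries (marked DOXn and IL3p) came from transduced cells seeded without it, so all 6 libraries share the transduced background. The IL3 marks change together with doxycycline, and the protocols used here do not explain them, so the effects of the fusion, of doxycycline itself and of any change in interleukin-3 cannot be told apart. Each group holds one library marked EF1, one EF2 and one EFPC. The labels do not explain those marks or say whether the cultures were separate clones. The p-values therefore describe only the spread among these libraries, which may be technical.

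Hexokinase traps glucose in the cell by phosphorylating it. Glucose phosphate isomerase then turns glucose phosphate into fructose phosphate, and phosphofructokinase adds a further phosphate in the committed, strongly regulated step of the pathway. The PFKFB enzymes both make and break down the fructose bisphosphate that activates phosphofructokinase. Hematopoietic cells that depend on growth factors are known to adjust glucose uptake and these early steps to cytokine signalling.

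Total read counts lay between 30970019 and 43177842 per library, and the 9 genes had between 551 and 32839 reads each. Etv6, used as a check of the labels, stood at 86.2, 81.3 and 94.6 CPM (read counts scaled to library size with the TMM method) in the EF1, EF2 and EFPC controls. In the induced libraries it stood at 259, 230 and 120 CPM, higher than its partner in every pair but by a log2 difference of only 0.34 in EFPC, against 1.59 in EF1 and 1.5 in EF2. Whether reads of the fusion transcript were among these counts was not tested, and Frk was not analysed here. The B-lineage markers Cd79a and Cd79b had a summed level of 18.5 to 23.5 TPM (a level scaled to transcript length and library size) in the controls and 8.93 to 23.2 in the induced libraries. In bulk RNA, a change in the number of cells of one kind and a change in RNA per cell cannot be told apart.

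Across the 9 genes, Hk3 and Pfkl were lower in the induced libraries, Hk1, Hk2 and Pfkfb3 were higher in the EF1 and EF2 pairs and lower in the EFPC pair. Gpi1 and Pfkm were lower in all 3 pairs, and Pfkp and Pfkfb4 differed in sign between pairs. With the quasi-likelihood test of edgeR, 0 of the 9 genes passed an adjusted p of 0.05, and 0 of the 13260 genes tested did (0%). At an unadjusted p under 0.05 that test had 3 of the 9 lower, Hk3, Pfkl and Pfkm, against 8.23% of all genes, and 0 higher, against 9.34%. With DESeq2, 2 of the 9 were lower (Hk3 and Pfkl), against 2.65% of all genes, and 0 were higher, against 4.25%. With the replicate number as a block, DESeq2 gave the same 2 genes lower and 0 higher, where 4.73% of all genes were lower and 6.4% higher. The CPM of the groups did not overlap for 4 genes, all lower after induction (Hk3, Gpi1, Pfkl and Pfkm), against 13% of all genes, and for 0 genes higher, against 11.2%. The same 4 genes were lower in all 3 pairs, as were 25.8% of all genes. The members' median log2 fold change was -0.26 by edgeR, with 6 values below 0 and 3 above, beside a median of -0.01 over all genes.

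**Figure D1:**
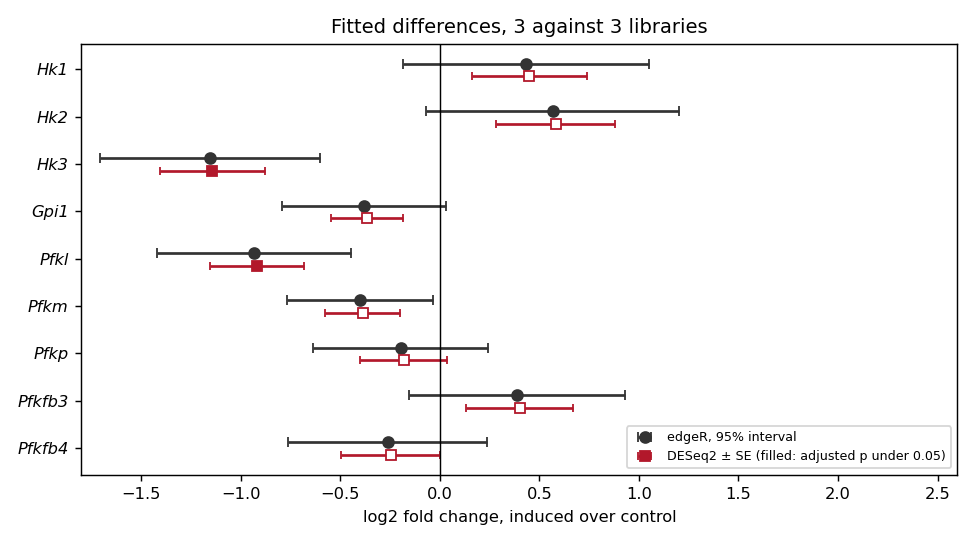
Log2 fold change, induced over control, for the 9 genes in 3 against 3 libraries. Circles give the edgeR estimate with its 95% interval and squares the DESeq2 estimate with its standard error, filled where the DESeq2 adjusted p was under 0.05; the edgeR intervals of Hk3, Pfkl and Pfkm lie below 0, and only Hk3 and Pfkl have filled squares.

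The sequences upstream of Hk2, Hk3 and Pfkl are shown because Hk3 and Pfkl were the genes called lower by DESeq2 and Hk2 had the largest increase within a pair. Each runs up to the end of the gene's RefSeq extent (GRCm38.p6) and is printed along the gene's strand, 250 bases for Hk2 and Pfkl. For Hk3 the RefSeq promoter entry overlaps the extent by 90 bases, which were left out, so 160 are shown. Capitals mark ACGTG or GCGTG on either strand (CACGT and CACGC on the printed strand), the core letters of the hypoxia response element. The stretches are chr6:82774455-82774704 for Hk2, chr13:55021476-55021635 for Hk3 and chr10:78009808-78010057 for Pfkl, all on the minus strand.
Hk2: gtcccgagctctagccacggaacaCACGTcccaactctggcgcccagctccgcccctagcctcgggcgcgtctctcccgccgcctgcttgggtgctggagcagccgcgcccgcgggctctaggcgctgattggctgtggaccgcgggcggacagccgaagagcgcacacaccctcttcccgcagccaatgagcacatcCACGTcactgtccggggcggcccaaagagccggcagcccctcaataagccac
Hk3: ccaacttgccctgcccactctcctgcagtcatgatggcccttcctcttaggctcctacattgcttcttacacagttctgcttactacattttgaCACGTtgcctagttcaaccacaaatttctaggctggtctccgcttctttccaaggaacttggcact
Pfkl: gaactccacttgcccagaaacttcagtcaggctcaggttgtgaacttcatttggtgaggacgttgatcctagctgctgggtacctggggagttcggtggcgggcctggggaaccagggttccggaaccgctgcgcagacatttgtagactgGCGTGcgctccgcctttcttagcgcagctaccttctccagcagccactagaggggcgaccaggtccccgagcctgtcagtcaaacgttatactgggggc
Hk2 held ACGTG at 226 and 52 bases before the gene, Hk3 held it at 66 bases, and Pfkl held GCGTG at 99 bases. In promoters of 250 bases, Hk1, Pfkm, Pfkp, Pfkfb3 and Pfkfb4 also held ACGTG or GCGTG, and Gpi1 held neither. Among 32851 promoters of 250 bases, 16.6% held ACGTG and 28.2% held GCGTG, so a match describes the letters only.

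In TPM, the controls were ordered Gpi1, Hk1 and Pfkl from the top, with ranges that did not overlap. Gpi1 stood at 489 ± 23.8 TPM (SD, n = 3), Hk1 at 169 ± 33.0 and Pfkl at 117 ± 22.1. Pfkp, Hk2, Hk3 and Pfkm followed at 39.1 to 49.5 TPM on average, and each overlapped its neighbour in that order. Pfkfb3 and Pfkfb4 were lowest, at 17.1 ± 5.36 and 14.6 ± 2.45 TPM, and overlapped. In the induced libraries Gpi1 and Hk1 kept the first places, Hk2 moved above Pfkl with overlapping ranges, and Hk3 moved to the eighth place at 21.9 ± 6.35 TPM. Hk2, Pfkl and Pfkp overlapped as neighbours there, as did Pfkm, Pfkfb3, Hk3 and Pfkfb4.

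**Figure D2:**
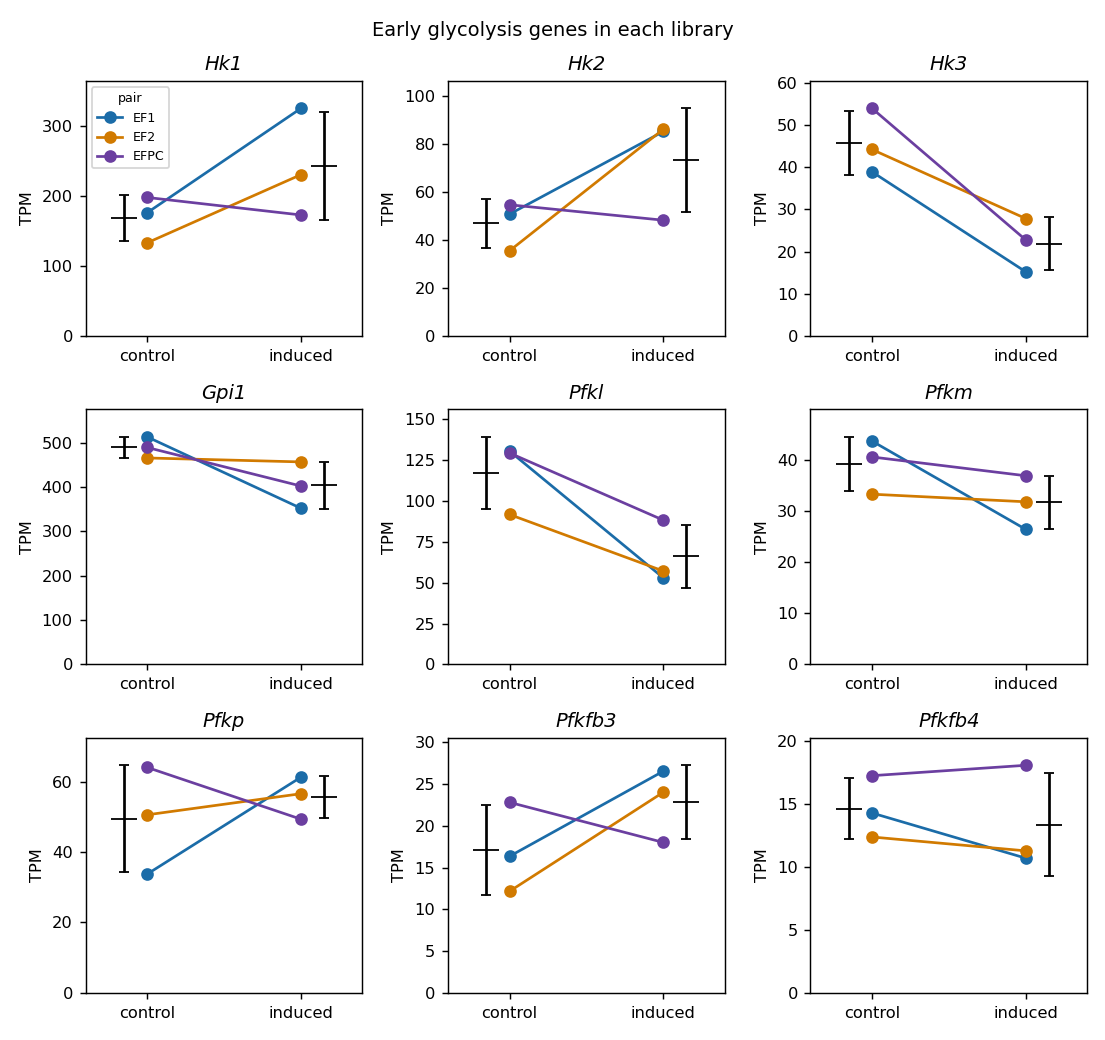
TPM of the 9 genes in each library; lines join the control and induced library of one mark (EF1, EF2 or EFPC), and bars give the group mean ± SD (n = 3). Hk3 and Pfkl slope down in all 3 pairs, whereas the EFPC line of Hk1, Hk2 and Pfkfb3 slopes down and the other lines slope up.

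Among the hexokinases, Hk1 and Hk2 are the forms that bind the outer mitochondrial membrane, and Hk3 is a form known mainly from myeloid cells. Hk3 (chr13:55005985-55021475, minus strand) stood at 38.9, 44.2 and 53.9 TPM in the EF1, EF2 and EFPC controls and at 15.2, 27.8 and 22.7 TPM in the induced libraries. Every induced library was below every control. By counts its mean CPM was 0.449 times that of the controls, with a log2 fold change of -1.15 (95% interval -1.71 to -0.60) and an edgeR adjusted p of 0.140; DESeq2 gave -1.14 (SE 0.264) and an adjusted p of 0.00112. The DESeq2 call stood without any single library, with adjusted p from 9.79e-05 to 0.0196, but not without the EF1 pair (log2 fold change -1.05, adjusted p 0.144), a fit in which 0.477% of all genes passed. Of 6 myeloid markers, 4 had a row (Mpo, Lyz2, Itgam and Adgre1). Their summed TPM ran from 22.2 to 29.0 in the controls and from 13.0 to 23.8 in the induced libraries. Lyz2 and Adgre1 were lower in all 3 pairs. Itgam was higher in EF1 (1.45 TPM in the control, 1.79 induced) and EF2 (4.28 and 7.76) and lower in EFPC (6.05 and 2.14). Mpo was lower in EF1 (6.92 and 3.48) and higher in EF2 (1.59 and 6.04) and EFPC (2.07 and 2.10). The part of these markers in the Hk3 difference was not tested.

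Hk2 (chr6:82725025-82774454, minus strand), the inducible form, stood at 50.8, 35.5 and 54.7 TPM in the controls and at 85.3, 86.3 and 48.3 TPM in the induced libraries. The EF1 and EF2 induced libraries lay above every control, and the EFPC induced library lay within their range. The log2 fold change was 0.57 (95% interval -0.07 to 1.20, edgeR adjusted p 0.325). Hk1 (chr10:62268855-62379920, minus strand), the widely expressed form, stood at 176, 133 and 198 TPM in the controls and at 325, 231 and 173 TPM after induction. Its EF1 and EF2 induced libraries were again above every control and the EFPC one was not, with a log2 fold change of 0.43 (95% interval -0.18 to 1.05, edgeR adjusted p 0.425). Without the EFPC induced library, Hk2 passed in both tools (log2 fold change 0.83, adjusted p 0.0337 in edgeR and 0.000376 in DESeq2) and Hk1 passed in DESeq2 only (adjusted p 0.0262, against 0.101 in edgeR). Without the EF1 induced library, the edgeR log2 fold change of Hk1 was 0.15 and that of Hk2 was 0.43, and neither passed in either tool. In that setting edgeR called 0 of 13410 genes, and DESeq2 called 125 of 13133 lower and 221 higher. With the EFPC induced library left out, edgeR called 2.04% of all genes lower and 4.63% higher, and DESeq2 8.05% and 9.51%. DESeq2 also called Pfkfb4 lower with that EFPC library left out. Pfkl passed in edgeR without the EFPC induced library as well (adjusted p 0.0129).

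Within the hexokinase family, Hk3 held a smaller share in every induced library than in any control. It made up 14.6%, 20.8% and 17.6% of the summed hexokinase TPM in the controls and 3.56%, 8.06% and 9.31% in the induced libraries, a mean of 17.7% ± 3.07 against 6.98% ± 3.02 (SD, n = 3). The induced minus control difference was -11.1, -12.7 and -8.27 percentage points in the EF1, EF2 and EFPC pairs. Hk1 made up 64.5% ± 1.85 in the controls and 71.4% ± 4.77 after induction, and Hk2 17.9% ± 1.22 and 21.6% ± 2.96. Each of these 3 shares had an exact two-sided permutation p of 0.1, the smallest that 3 against 3 libraries allow, and 0.2 after Benjamini-Hochberg adjustment over 8 shares. The log2 ratio of Hk2 to Hk3 was 0.03 ± 0.35 in the controls and 1.74 ± 0.71 after induction, a difference of 1.71 (exact permutation p 0.1, adjusted 0.175 over 7 ratios). The ratio of Hk1 to Hk2 differed by a log2 of only -0.12 (exact permutation p 0.8). Summed hexokinase TPM was 266, 213 and 307 in the controls and 426, 345 and 244 after induction, higher in EF1 and EF2 and lower in EFPC (exact permutation p 0.3). The Hk3 share was lower in EFPC as well, although the family sum there went the other way.

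**Figure D3:**
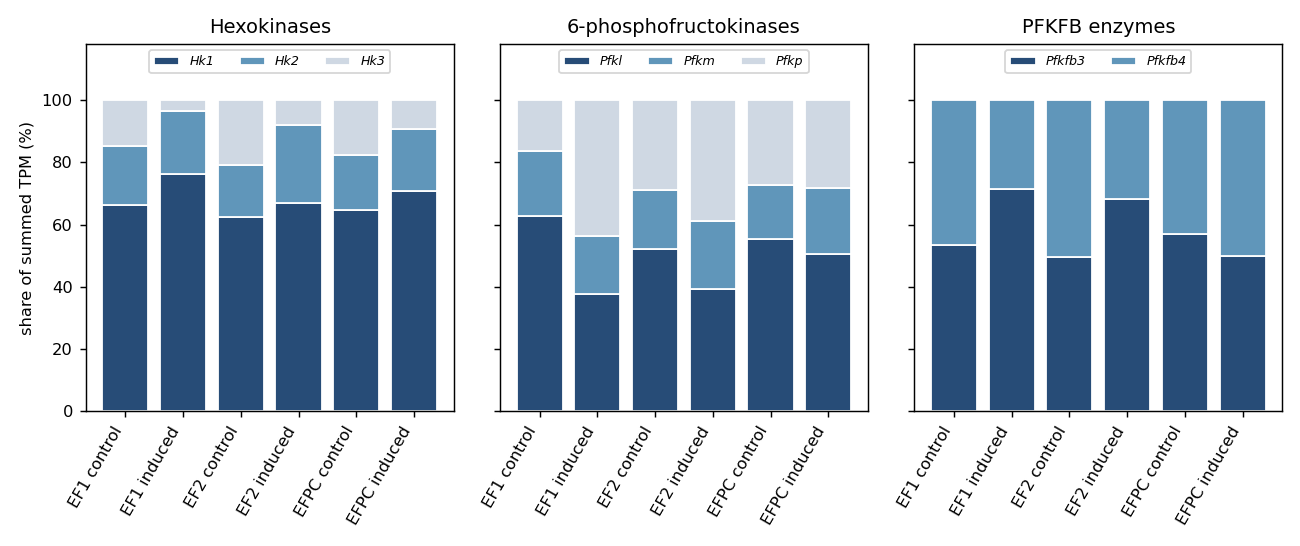
Share of each isoenzyme in the summed TPM of its family, in percent, for each of the 6 libraries. The Hk3 share lies at 3.56% to 9.31% in the induced libraries and at 14.6% to 20.8% in the controls, and the Pfkl share is lower in the induced library of every pair.

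Gpi1 (chr7:34201327-34230336, minus strand), which interconverts glucose and fructose phosphates and has no isoenzyme here, stood at 513, 465 and 489 TPM in the controls and at 352, 456 and 402 TPM after induction. The groups did not overlap, but in EF2 the pair differed by a log2 of only -0.03 in TPM. By counts the log2 fold change was -0.38 (95% interval -0.79 to 0.03, edgeR adjusted p 0.315).

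Phosphofructokinase is a tetramer built from liver (Pfkl), muscle (Pfkm) and platelet (Pfkp) type subunits, and the liver type was the one that differed most. Pfkl (chr10:77986947-78009807, minus strand) stood at 130, 91.7 and 129 TPM in the controls and at 52.9, 57.1 and 88.2 TPM after induction, below every control in all 3 libraries. The pair differences in log2 CPM were -1.38 in EF1, -0.89 in EF2 and -0.58 in EFPC. Its log2 fold change was -0.93 (95% interval -1.42 to -0.44, edgeR adjusted p 0.153), and DESeq2 gave -0.92 (SE 0.236, adjusted p 0.00442). The DESeq2 call was lost without the EF1 control (adjusted p 0.131), the EF1 induced library (0.0730) or the EF2 induced library (0.0815). It was also lost without the EF1 pair (log2 fold change -0.71, adjusted p 0.816), where DESeq2 called 0.477% of all genes, and without the EF2 pair (log2 fold change -0.93, adjusted p 0.139), where it called 1.1%.

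Pfkm (chr15:98092589-98132447, plus strand) stood at 43.6, 33.2 and 40.5 TPM in the controls and at 26.4, 31.8 and 36.8 TPM after induction, and these ranges overlapped in TPM. Its CPM did not overlap, with 57.5 to 69.3 in the controls and 39.6 to 51.5 after induction, and the log2 fold change was -0.40 (95% interval -0.77 to -0.03, edgeR adjusted p 0.254). Pfkp (chr13:6579874-6649060, minus strand) was the one gene whose TPM and CPM differed in direction within a pair. In EF1 its TPM was 33.7 in the control and 61.3 after induction, a log2 difference of 0.86, while its CPM was 145 and 135, a log2 difference of -0.10. The transcript length implied by its counts per TPM, set against the median gene, was 2.71, 1.43 and 2.16 in the controls and 1.47, 1.58 and 1.96 after induction. The highest was 1.89 times the lowest, a range that only 0.306% of 10126 genes exceeded, whereas the other 8 genes had ratios of at most 1.07. The log2 fold change of Pfkp by counts was -0.20 (95% interval -0.63 to 0.24, edgeR adjusted p 0.618), and 0.0066 without the EFPC control.

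**Figure D4:**
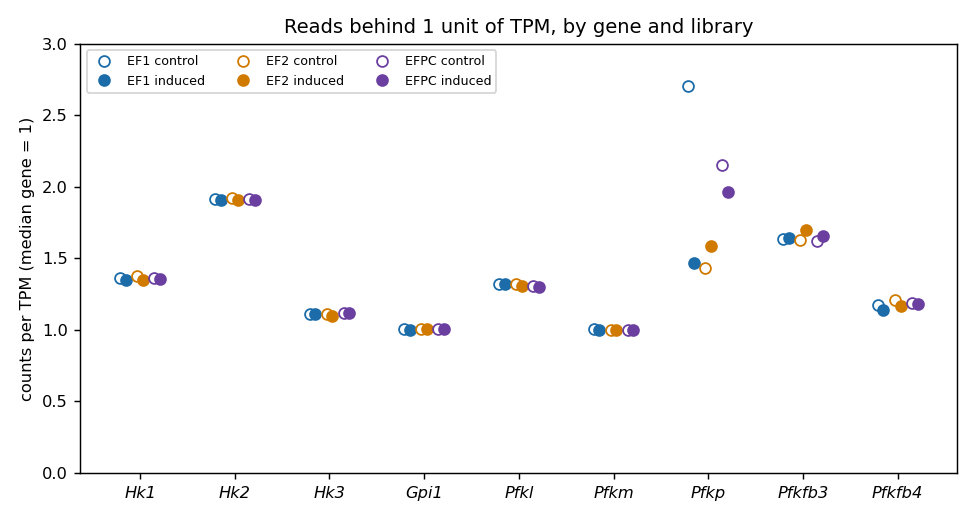
Transcript length implied by counts per TPM, relative to the median gene, for each of the 9 genes in each library. Pfkp spans 1.43 to 2.71 across the libraries, while the other genes stay close to one value.

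Within the phosphofructokinases, the liver type held a smaller share in every induced library than in any control. Pfkl made up 62.8%, 52.2% and 55.3% of the summed phosphofructokinase TPM in the controls and 37.6%, 39.3% and 50.6% after induction, a mean of 56.8% ± 5.42 against 42.5% ± 7.05 (SD, n = 3, exact permutation p 0.1, adjusted 0.2). The induced minus control difference was -25.1 percentage points in EF1, -13.0 in EF2 and -4.71 in EFPC. Pfkp made up 16.2%, 28.8% and 27.4% in the controls and 43.6%, 38.9% and 28.3% after induction, with exact permutation p 0.2. Because the TPM of Pfkp rests on a length that changed between libraries, the shares were also computed with one length per gene. On that scale Pfkl was 55.2% ± 2.90 and 43.5% ± 4.70, with differences of -17.2, -14.7 and -3.21 points in the 3 pairs, and Pfkp was 26.3% ± 4.62 and 35.3% ± 4.33. The Pfkp differences on that scale were 16.2, 11.8 and -0.98 points, so its sign in EFPC was opposite to the 0.904 points seen in TPM. The Pfkl to Pfkm ratio, which does not use Pfkp, was lower in all 3 pairs, with log2 differences of -0.58, -0.62 and -0.41 (exact permutation p 0.1). Summed phosphofructokinase TPM was 206 ± 29.2 in the controls and 153 ± 18.3 after induction (exact permutation p 0.1, adjusted 0.2 over 4 sums). The log2 differences of this sum were -0.56, -0.27 and -0.42 in the EF1, EF2 and EFPC pairs. In CPM with 1 length per gene they were -0.87, -0.45 and -0.49.

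Pfkfb3, the form whose kinase activity far exceeds its phosphatase activity, stood at 16.4, 12.2 and 22.8 TPM in the controls and at 26.6, 24.0 and 18.02 TPM after induction. Its EF1 and EF2 induced libraries lay above every control, while EFPC did not, and the log2 fold change was 0.39 (95% interval -0.15 to 0.93, edgeR adjusted p 0.416). Pfkfb4, another bifunctional form, stood at 14.3, 12.4 and 17.2 TPM in the controls and at 10.7, 11.3 and 18.05 TPM after induction, with a log2 fold change of -0.26 (95% interval -0.76 to 0.24, edgeR adjusted p 0.551). That value was -0.13 without the EF1 induced library, -0.16 without the EF2 one and -0.51 without the EFPC one. Pfkfb3 made up 53.4%, 49.6% and 57.0% of the TPM of both genes in the controls and 71.3%, 68.1% and 49.96% after induction (exact permutation p 0.3). The share was higher by 17.9 and 18.5 percentage points in EF1 and EF2 and differed by -7.03 in EFPC. Pfkfb1 and Pfkfb2 were lower in level, at 8.25 and 7.89 TPM in the controls and 6.89 and 10.3 TPM after induction on average. Pfkfb3 lies at chr2:11471430-11554071 (minus strand) and Pfkfb4 at chr9:108988272-109032236 (plus strand).

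The EFPC pair went apart from the other 2 pairs for Hk1, Hk2 and Pfkfb3, the 3 of 9 genes that were higher in EF1 and EF2 and lower in EFPC by CPM, a pattern held by 14.6% of all genes. In log2 CPM, Hk2 differed by 0.66, 1.08 and -0.20 in EF1, EF2 and EFPC. Hk1 differed by 0.80, 0.57 and -0.23, and Pfkfb3 by 0.63, 0.85 and -0.33. In an interaction model chosen after seeing the data, the EFPC difference minus that of EF1 and EF2 was -1.08 (SE 0.281) for Hk2, -0.91 (SE 0.262) for Hk1 and -1.07 (SE 0.275) for Pfkfb3. The edgeR adjusted p-values were 0.0113, 0.0225 and 0.00929, and DESeq2 called the same 3 genes. These were 3 of 9 genes lower, against 6.41% of all genes in edgeR and 4.73% in DESeq2; the other 6 genes did not pass in either tool. Without both EFPC libraries, DESeq2 called 5 of the 9 genes (Hk3 and Pfkl lower, Hk1, Hk2 and Pfkfb3 higher), where it called 21.8% of all genes, and the same 5 with the replicate block, where it called 22.4%. EFPC is 1 pair, so its own spread was not estimated, and the model was run because the pattern had been seen, so these p-values describe the pattern and give it no independent support. The EFPC induced library also had the smallest Etv6 difference from its control. It had the highest summed TPM of 4 erythroid markers, 3628 against 292 to 977 in the controls. The globins Hba-a1 (2139 TPM) and Hbb-bs (1246 TPM) made up most of that sum. In the EFPC control these globins stood at 561 and 246 TPM, the highest of the controls, with 483 and 201 TPM in the EF1 control. Klf1 was also highest in the EFPC induced library (99.0 TPM). Gata1 in that library (145 TPM) was lower than in the EF1 and EF2 induced libraries (223 and 176 TPM). The part of Etv6 and of these markers in the result was not tested.

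**Figure D5:**
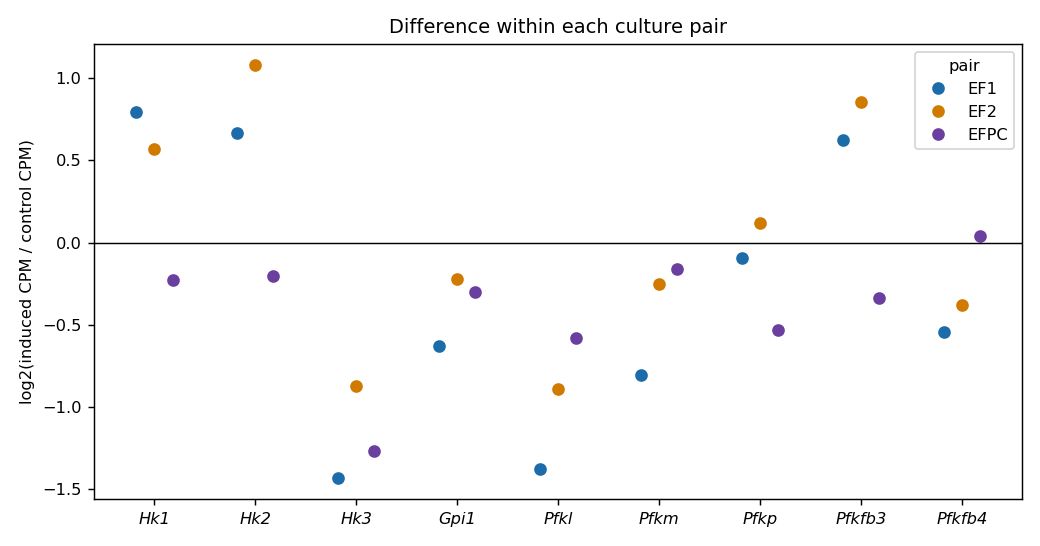
Log2 difference in CPM, induced over control, within each of the EF1, EF2 and EFPC pairs for the 9 genes. Hk3, Gpi1, Pfkl and Pfkm lie below 0 in all 3 pairs, and Hk1, Hk2 and Pfkfb3 lie above 0 in EF1 and EF2 and below 0 in EFPC.

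Genes with profiles most like those of Hk2 and Pfkl were found by the root mean square distance of centred log2 CPM over the 6 libraries, among 10178 genes. For Hk2 the closest were Zbtb21 at 0.0528, D16Ertd472e at 0.0653 and Tsc22d2 at 0.0799. Pfkfb3 ranked 77 and Hk1 ranked 83 in likeness to Hk2. For Pfkl the closest were Tpi1, the triose phosphate isomerase of lower glycolysis, at 0.0770, Map3k12 at 0.108 and Idh2 at 0.114, and the nearest of the 9 genes was Pfkm at rank 464.

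Most of the tested genes of the later steps of glycolysis were called lower by DESeq2. Of 16 genes listed for lower glycolysis and lactate, 11 had a row and 10 were tested, and DESeq2 called 8 lower and 0 higher (edgeR 0), where 2.65% of all genes were lower and 4.25% higher. They were Aldoa, Tpi1, Gapdh, Pgk1, Pgam1, Eno1, Pkm and Ldha, and their median log2 fold change with the other tested genes was -0.82 by edgeR. Pkm, the pyruvate kinase, stood at 2034 ± 231 CPM in the controls and 997 ± 114 after induction (DESeq2 log2 fold change -1.01, adjusted p 6.09e-06). Ldha, lactate dehydrogenase, stood at 1532 ± 166 and 939 ± 49.1 CPM (DESeq2 adjusted p 0.00091). With the replicate block DESeq2 added Eno3 (adjusted p 0.0309), where it called 4.73% of all genes lower and 6.4% higher. Without the block, leaving out the EF1 pair gave 0 of the list, with 0.477% of all genes called. Leaving out the EF2 pair gave 4, with 1.1%.

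Among 17 genes of glucose entry and the branches from glucose phosphate, 16 had a row, and DESeq2 called 2 lower and 0 higher (edgeR 0), beside the same 2.65% and 4.25% of all genes, with an edgeR median of -0.20. These were Slc2a1, a glucose transporter, at 82.1 ± 1.61 and 53.9 ± 7.04 CPM (DESeq2 adjusted p 0.0123), and Pgm2, a phosphoglucomutase, at 114 ± 8.60 and 75.6 ± 3.94 CPM (DESeq2 adjusted p 0.00392). With the replicate block DESeq2 called 3, adding Pgd (adjusted p 0.0181), where it called 4.73% of all genes lower and 6.4% higher. Slc2a3, another transporter, stood at 378 ± 71.7 and 236 ± 74.9 CPM and did not pass (DESeq2 adjusted p 0.183). Of 21 regulators, 15 had a row. DESeq2 called 2 of them lower and 0 higher (edgeR 0), beside the same 2.65% and 4.25% of all genes. These were Egln1, the oxygen sensor that marks HIF for destruction, at 80.2 ± 4.52 and 40.1 ± 11.4 CPM (DESeq2 adjusted p 0.00416), and Vdac1, the mitochondrial channel that hexokinase binds, at 328 ± 33.4 and 225 ± 4.25 CPM (DESeq2 adjusted p 0.0156). Hif1a stood at 156 ± 22.7 and 190 ± 59.4 CPM (DESeq2 adjusted p 0.607). Without the EF1 pair or the EF2 pair, DESeq2 called 0 genes of both lists, in fits that called 0.477% and 1.1% of all genes.

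The summed TPM of each early step was set against that of lower glycolysis, as a ratio of separate sums with no test. The ratio was higher after induction for all 4 steps on average, while the lower glycolysis sum itself was smaller in every induced library than in any control. The hexokinases came to 2.51%, 2.53% and 3.10% of that sum in the controls and 7.54%, 5.93% and 4.23% after induction, with every induced library above every control. All 9 genes came to 10.3% ± 0.615 and 16.2% ± 1.19 (SD, n = 3). The sum of the 9 genes itself was 1017, 878 and 1070 TPM in the controls and 956, 982 and 856 after induction, which overlapped, while the lower glycolysis sum was 10580, 8399 and 9894 TPM and then 5650, 5811 and 5772. The phosphofructokinase sum and the sum of the 9 genes include Pfkp, whose TPM rests on a length that changed between libraries.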

How the data were processed

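RNA from 6 Ba/F3 cultures was sequenced from stranded mRNA libraries, per the labels' protocols, aligned with HISAT2 to mm10 and analysed with DESeq2, per the submitters' processing notes; versions, the counting program and the annotation are not stated in the labels or notes. The authors deposited raw read counts, TPM, FPKM, normalised log2 values, and a comparison with a signed fold change (a score), a base mean (signal) and p-values; only the counts and TPM were used here. All 14238 genes in the table have a read in every library, and genes without a row were not analysed here.

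Counts were tested with edgeR 4.0.16 (quasi-likelihood, TMM, 13260 genes kept by expression) as the main test and DESeq2 1.42.0 as an alternative, in R 4.3.3, with Benjamini-Hochberg adjustment and a threshold of 0.05. limma 3.58.1 was a further alternative. The scripts were checked on simulated data. Shares, ratios and sums of TPM were tested with two-sided exact permutation tests. Same-numbered control and induced libraries deviated together (correlations 0.174, 0.342 and 0.352 in EF1, EF2 and EFPC). The EF1 control correlated nearly as well with the EF2 induced library (0.149), and the EF2 control less so with the EF1 induced library (0.0992). Unmatched libraries of which 1 was EFPC had correlations from -0.397 to -0.183. Because each group was centred on its own mean, positive values for some library combinations force negative values for others. The replicate numbers were taken to pair the libraries, though these values hardly tell EF1 from EF2 for the EF1 control. A fit with the replicate block was run. Alternatives also changed the scaling, the filter and the pseudocount, and left out each library. Members and pathway lists were chosen with earlier results of these data known. The genes named are the 9 members, listed pathway genes with a DESeq2 adjusted p under 0.05, a few further listed genes given by symbol, and the 3 genes nearest to Hk2 and to Pfkl. Gene positions and upstream sequences are from RefSeq (GRCm38.p6).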

Additional observations from a re-analysis of the deposited data

Results flagged for a closer look

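Hk1, Hk2 and Pfkfb3 are listed here because their induced over control difference in the EFPC pair departed from that in the EF1 and EF2 pairs in a model with an interaction term. For Hk2 the log2 departure was -1.08 by edgeR (adjusted p 0.0113) and -1.09 by DESeq2 (adjusted p 0.0139). For Hk1 it was -0.91 by edgeR (adjusted p 0.0225) and -0.92 by DESeq2 (adjusted p 0.0334). For Pfkfb3 it was -1.07 by edgeR (adjusted p 0.00929) and -1.08 by DESeq2 (adjusted p 0.0310). The model was run because the pattern had been seen, and the EFPC arm is 1 pair whose own spread was not estimated, so these p-values describe the pattern and give it no independent support.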

How the results depend on the processing

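Under the alternatives tried, the direction of the 3 hexokinase shares, the Pfkl share and the family sums stayed as reported. The number of the 9 genes called was 0 by edgeR, 2 by DESeq2 and 2 by DESeq2 with the replicate block, and 0 to 2 by edgeR when each library was left out. By DESeq2 it was 0, 1 and 5 without replicates 1, 2 and 3 of both groups, 5 with the replicate block without replicate 3 of both groups, and 0 to 5 over all leave-outs. Those 4 fits called 0.477%, 1.1%, 21.8% and 22.4% of all genes, so the members' counts moved with the count over all genes. Among the edgeR leave-outs, only the fit without the EFPC induced library called any gene, 2.04% of all genes lower and 4.63% higher. With all libraries DESeq2 called 2.65% lower and 4.25% higher, and with the replicate block 4.73% and 6.4%. For lower glycolysis, edgeR called 0 (0 to 4 with a library left out), DESeq2 8 and the block 9; DESeq2 called 0 without pair 1, 4 without pair 2, and 0 to 9 over leave-outs. For glucose entry and branches, edgeR called 0 (0 to 2), DESeq2 2 and the block 3; DESeq2 called 0, 0 and 5 without pairs 1, 2 and 3, 7 with the block without pair 3, and 0 to 5 over leave-outs. For regulators, edgeR called 0 (0 to 1), DESeq2 2 and the block 2; DESeq2 called 0, 0 and 4 without pairs 1, 2 and 3, 4 with the block without pair 3, and 0 to 4 over leave-outs. Pfkp changed sign: its log2 fold change ran from -0.30 to 0.0066 by edgeR and from -0.31 to 0.026 by DESeq2 over leave-outs of a library or of pair 3, and was 0.030 by DESeq2 with the block without pair 3. The Hk1 to Hk2 log2 ratio ran from -0.22 to 0.035 over leave-outs. Fewer libraries entered each leave-out fit; the cause of the other changes was not tested. With 3 libraries a group, no permutation p can be below 0.1, and depth was not varied.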

Other observations

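The sign pattern of Hk1, Hk2 and Pfkfb3, higher in EF1 and EF2 and lower in EFPC, was held by 3 of 16 genes of glucose entry and branches, 3 of 15 regulators and 0 of 11 genes of lower glycolysis, beside 14.6% of all genes. The count was made after these values were seen. Gfpt1, which opens the hexosamine branch, differed by a log2 CPM of 1.24 in EF1, 1.57 in EF2 and -0.34 in EFPC, and Slc2a6, a sugar transporter, by 3.58, 1.51 and -0.55. Tigar differed by 0.42, 0.85 and -1.04 and Hif1a by 0.22, 0.93 and -0.41, and the remaining 2 genes by at most 0.28 in any pair. None of the 6 passed over all 3 pairs (DESeq2 adjusted p from 0.114 to 0.993).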
